A study of Mus musculus with 71 samples.

Results

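The genes described here are the regulators of G protein signalling (RGS), the phosphodiesterases and the adenylyl cyclases of the mouse brain, taken as every gene whose annotated symbol begins with Rgs, Pde or Adcy followed by a digit. Rgs9, Rgs18, Pde10a and Adcy5 were left out. The rule found 52 genes among 18194 genes on the array, of which 19 were RGS genes, 24 phosphodiesterase genes and 9 adenylyl cyclase genes. Where a gene had several probe sets, the probe set with the highest mean over the 71 arrays stood for it.

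Receptors coupled to G proteins set the level of cyclic AMP in a neuron, and these 3 families act after the receptor. Adenylyl cyclases make cyclic AMP when the stimulatory G protein alpha subunit is bound to GTP, phosphodiesterases hydrolyse cyclic AMP, cyclic GMP or both, and RGS proteins shorten the signal by speeding the hydrolysis of GTP on alpha subunits. In the striatum this chain carries dopamine signals, because the Drd1 receptor raises cyclic AMP and the Drd2 receptor lowers it. A few genes share the family symbols but have other roles: Pde12 acts on oligoadenylates and poly(A) tails, Pde4dip is a scaffold protein, Pde6d is a chaperone for prenylated proteins, and Rgs7bp and Rgs9bp anchor RGS proteins at membranes.

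The study deleted either of a pair of partner histone H3 lysine methyltransferases, enzymes known for silencing genes. Camk2a-Cre; GLPfl/fl mice lacked GLP (gene Ehmt1) and Camk2a-Cre; G9afl/fl mice lacked G9a (gene Ehmt2) in cells where the Camk2a promoter drives Cre, chiefly forebrain neurons of postnatal animals, so other cells of the tissue keep the gene. Their controls were littermates with the floxed allele, matched for age and sex. Total RNA came from hippocampus, hypothalamus, striatum and cortex, with 4 arrays in each group except for 3 control arrays in G9a hippocampus and 2 arrays in each G9a cortex group. In a second experiment, mRNA bound to polyribosomes was pulled down from Drd1 or Drd2 neurons that carry a tagged ribosomal protein (bacTRAP). Drd1-Cre; Drd1-bacTRAP; G9afl/fl pools were set against Drd1-bacTRAP; G9afl/fl pools, and Drd2-Cre; Drd2-bacTRAP; G9afl/fl pools against Drd2-bacTRAP; G9afl/fl pools, with 3 pools of 5 mice in each group, so that the control pools also carried the floxed G9a allele and the transgene. Mice were 10 to 14 weeks old, and whether the regions came from the same animals was not given in the sources used here. Xist, a transcript that marks female cells, was high on every GLP array and on no G9a cortex array or pool. It was high on 2 of 4 arrays in each G9a hypothalamus and striatum group. In G9a hippocampus it was high on 2 of 4 mutant and 1 of 3 control arrays. Sex was thus not balanced between the lines, between cortex and the other G9a regions, or between pools and striatum.

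All values are log2 intensities scaled so that the median probe set of each array is at 0. An array gives no absolute level, so values are compared between groups for 1 gene and not between genes. A gene was tested where it lay above the array median in at least as many of the compared arrays as the smaller group held, and was called where the adjusted p of limma, with Benjamini-Hochberg adjustment over all genes tested, was below 0.05. Of the 52 genes, 43 were tested in at least 1 comparison of mutants with controls, 39 in all 10 such comparisons and 9 in none. Adcy10, Pde11a, Pde3a, Pde6a, Pde6b, Rgs1 and Rgs9bp never rose above an array median. The p-values weigh each difference against the spread of these arrays within groups. That spread was taken over all groups of a fit, not only those compared.

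Ehmt1 was at 67.0% of control in GLP mutant hippocampus, 72.6% in striatum and 58.9% in cortex, all called, and at 89.8% in hypothalamus, which was not called. Ehmt2 was at 44.6% of control in G9a mutant hippocampus, 49.2% in hypothalamus, 41.1% in striatum and 29.5% in cortex, all called. In the Drd1 pools labelled as lacking G9a, Ehmt2 was 5.01, 1.56 and 4.93, against 6.22, 5.93 and 5.49 in their controls (limma adjusted p = 0.936). In the Drd2 pools labelled as lacking G9a it was 6.04, 5.91 and 5.99, against 5.18, 6.07 and 6.93 in their controls (limma adjusted p = 1), so for those pools the array did not show the loss that the label names. Every region carried its own markers in controls: 18 of 18 medium spiny neuron genes were higher in striatum, 12 of 14 tested peptide genes in hypothalamus, 13 of 14 projection neuron genes in cortex and 13 of 14 dentate and pyramidal genes in hippocampus.

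Of the 52 genes, 5 were called in a comparison of mutants with controls, namely Rgs10, Pde5a, Rgs17, Rgs8 and Rgs5. Their promoter windows are printed because the deleted enzymes act on chromatin and because CG dinucleotides are frequent in the promoters of widely expressed genes. Each window runs from 250 bases before to 50 bases after a RefSeq start on build GRCm38.p6, read along the gene's own strand from 5′ to 3′, with every CG dinucleotide in capitals. For Rgs8, which has several windows, the most upstream of them is shown. The annotated gene begins further upstream than the start shown for Rgs8 (from base 153652959), Rgs10 (to base 128419506) and Rgs17 (to base 5922412). For Rgs8 and Rgs17 that beginning still lies inside the window. For Rgs10 it lies upstream of the window, so another start of Rgs10 may lie outside the window shown.
Rgs10, chr7:128418123-128418422, minus strand: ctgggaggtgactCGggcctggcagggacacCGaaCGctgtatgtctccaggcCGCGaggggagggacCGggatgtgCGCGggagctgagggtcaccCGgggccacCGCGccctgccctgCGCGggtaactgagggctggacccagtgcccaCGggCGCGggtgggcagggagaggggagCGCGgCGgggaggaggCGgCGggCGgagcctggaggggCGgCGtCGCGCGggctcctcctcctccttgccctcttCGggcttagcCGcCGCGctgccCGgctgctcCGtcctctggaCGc
Pde5a, chr3:122728908-122729207, plus strand: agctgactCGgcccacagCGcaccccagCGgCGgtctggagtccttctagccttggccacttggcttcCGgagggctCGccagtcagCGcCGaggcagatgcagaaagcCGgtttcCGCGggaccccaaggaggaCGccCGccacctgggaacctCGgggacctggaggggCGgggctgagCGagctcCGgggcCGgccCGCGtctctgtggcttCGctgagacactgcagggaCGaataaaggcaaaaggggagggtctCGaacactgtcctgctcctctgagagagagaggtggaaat
Rgs17, chr10:5922351-5922650, minus strand: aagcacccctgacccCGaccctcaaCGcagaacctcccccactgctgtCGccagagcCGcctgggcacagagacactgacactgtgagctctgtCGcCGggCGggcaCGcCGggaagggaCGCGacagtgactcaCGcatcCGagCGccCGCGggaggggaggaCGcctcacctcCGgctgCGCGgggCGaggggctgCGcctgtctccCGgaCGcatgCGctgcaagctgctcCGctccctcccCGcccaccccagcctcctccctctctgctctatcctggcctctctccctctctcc
Rgs8, chr1:153652787-153653086, plus strand: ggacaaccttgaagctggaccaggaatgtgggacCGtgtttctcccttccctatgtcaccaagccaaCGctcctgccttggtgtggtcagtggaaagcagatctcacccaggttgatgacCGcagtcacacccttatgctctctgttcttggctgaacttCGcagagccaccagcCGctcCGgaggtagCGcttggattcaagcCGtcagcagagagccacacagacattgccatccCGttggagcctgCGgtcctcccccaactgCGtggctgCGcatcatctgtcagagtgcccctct
Rgs5, chr1:169655251-169655550, plus strand: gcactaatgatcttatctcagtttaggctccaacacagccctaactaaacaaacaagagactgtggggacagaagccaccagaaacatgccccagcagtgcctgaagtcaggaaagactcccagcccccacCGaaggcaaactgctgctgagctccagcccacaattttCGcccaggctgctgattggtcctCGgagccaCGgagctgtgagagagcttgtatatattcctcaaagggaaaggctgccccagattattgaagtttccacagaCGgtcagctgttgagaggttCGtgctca
The windows differ in base composition, with 34 CG dinucleotides in Rgs10, 23 in Pde5a, 27 in Rgs17, 12 in Rgs8 and 6 in Rgs5. Over all 32544 windows of the RefSeq table the median was 7 and the quartiles were 3 and 20, so that the Rgs10, Pde5a and Rgs17 windows lie above the upper quartile and those of Rgs8 and Rgs5 between the quartiles. The table held 68 windows for 38 of the 52 genes, with a median of 9 CG dinucleotides. The cyclic AMP response element TGACGTCA, searched on both strands, was found in 0 of the 68 windows and in 1.8% of all windows, and its core TGACG, which the full element contains, in 20.6% of the 68 and 20.9% of all. Of the 5 windows shown only that of Rgs8 holds the core. A match of letters is not a binding site.

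The sharpest change on loss of GLP or G9a was a fall of Rgs10 in the GLP mutant striatum. Rgs10 (Entrez gene 67865, chromosome 7) encodes a small RGS protein that is known in mouse brain from both neurons and microglia. In striatum it was 3.91, 4.02, 3.90 and 3.68 in GLP mutants, against 4.71, 4.44, 4.50 and 4.69 in their controls. Every GLP mutant striatum lay below every control. The difference was -0.71 ± 0.13 (SE, n = 4 each, limma adjusted p = 0.000169), which put the mutants at 61.2% of control. It was the single call among 41 RGS, phosphodiesterase and cyclase genes tested in that comparison, where 1.65% of all genes were called, and it was kept when any 1 of the 8 arrays was left out.

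Rgs10 was lower in the mutants in the other regions of both lines too, without passing the test there. In GLP hypothalamus it was 4.94, 4.57, 5.09 and 4.78 in mutants, against 5.51, 5.10, 5.15 and 5.26 in controls (difference -0.41, limma adjusted p = 0.124). In GLP cortex it was 3.57, 3.78, 3.62 and 3.72 in mutants, against 4.14, 4.20, 4.17 and 3.82 in controls (difference -0.41, limma adjusted p = 0.1). In neither region did the groups overlap, and without the fourth GLP cortex control, the array nearest to the mutants, the cortex difference was -0.50 with a limma adjusted p of 0.0335. In G9a striatum Rgs10 was 3.65, 3.77, 3.89 and 4.06 in mutants, against 4.20, 4.03, 4.12 and 4.49 in controls (difference -0.37, limma adjusted p = 0.113), with the highest mutant just above the lowest control. The differences in GLP hippocampus, G9a hippocampus, G9a hypothalamus and G9a cortex were -0.19, -0.12, -0.18 and -0.31, with overlapping arrays except in G9a cortex. With 2 arrays in each G9a cortex group, that separation carries little weight. There 27 members had groups that did not overlap, and 0 had an unadjusted limma p below 0.05. The GLP effect on Rgs10 minus the G9a effect in striatum was -0.34 (unadjusted p = 0.061, limma adjusted p = 0.761), so a difference between the lines was not shown.

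**Figure D1:**
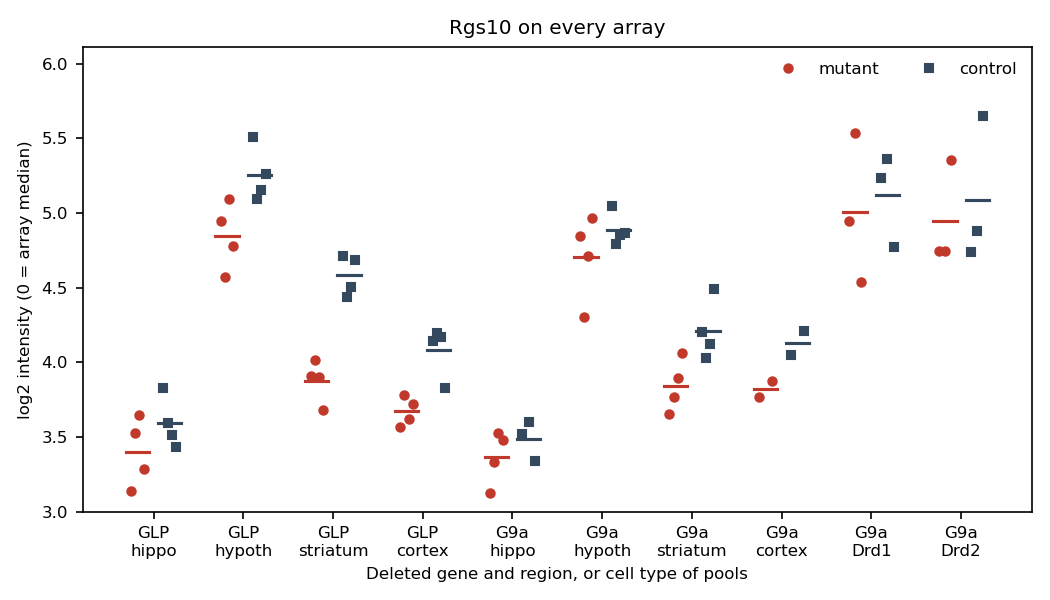
Log2 intensity of Rgs10 on every array, by region and neuron type, with mutant arrays as circles left of control arrays as squares and bars at the group means. In GLP striatum the 4 mutants lie between 3.68 and 4.02, all below the controls at 4.44 to 4.71.

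Because Rgs10 is known from microglia, markers of that cell type were set beside it. Of 13 microglial markers tested in GLP striatum, 0 were called and their median difference was -0.24, against -0.02 over all genes tested. The mean level of the whole list of 14 was 3.39 to 3.84 in GLP mutant striatum and 3.67 to 4.01 in controls. Only 1 of the 14, Itgam, lay below the array median on every array there, and it did so in all other groups of the series too. Over the other comparisons the median difference of the microglial list was -0.19 in GLP hypothalamus, -0.06 in GLP cortex and -0.01 in G9a striatum. The part of these markers in the Rgs10 difference was not tested, and in bulk tissue fewer cells of a type and less RNA per cell cannot be told apart.

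Pde5a, the cyclic GMP-specific phosphodiesterase, was the member called in both lines, and in both it was higher in the hypothalamus. Pde5a (Entrez gene 242202, chromosome 3) was at 2.12, 2.15, 2.21 and 1.78 in GLP mutant hypothalamus, against 1.08, 1.18, 1.72 and 1.60 in controls. All GLP mutants were above all controls, and the difference was 0.67 ± 0.17 (SE, n = 4 each, limma adjusted p = 0.0313), 1.59-fold. In G9a mutant hypothalamus Pde5a was 1.66, 2.00, 1.68 and 1.82, against 0.81, 1.54, 1.06 and 1.12 in controls. Again no mutant reached down to a control, and the difference was 0.66 ± 0.17 (SE, n = 4 each, limma adjusted p = 0.0246), 1.58-fold. The 2 comparisons have no control array in common. In GLP hypothalamus, however, the fall of Ehmt1 itself was not called, as given above.

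The Pde5a calls were close to the threshold. In GLP hypothalamus the call was lost when mutant 1, 2 or 3 or control 1 or 2 was left out, with differences of 0.57 to 0.65 and limma adjusted p of 0.0569 to 0.222. In G9a hypothalamus it was lost without mutant 4 or control 1, 3 or 4, with differences of 0.55 to 0.65 and limma adjusted p of 0.052 to 0.0796. A second Pde5a probe set was also higher in GLP hypothalamus (difference 1.16, limma p adjusted over probe sets 0.0112) and had a difference of 0.63 in G9a hypothalamus (limma p adjusted over probe sets 0.2), while the third was below the array median. With probe sets averaged Pde5a did not pass the low-value filter in either line (differences 0.56 in GLP and 0.53 in G9a hypothalamus). Fitted on those groups' arrays only, the limma adjusted p was 0.337 in the GLP line and 0.582 in the G9a line.

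Outside the hypothalamus Pde5a was higher in the mutants of every tissue comparison without being called. It was 3.29, 2.79, 3.31 and 3.32 in GLP mutant hippocampus and 2.54, 3.17, 2.78 and 2.62 in controls (difference 0.40), with overlap of 1 mutant. It was 2.93, 3.08, 2.97 and 2.97 in G9a mutant hippocampus and 2.67, 2.56 and 2.75 in controls (difference 0.33), without overlap. In cortex the differences were 0.26 in the GLP line and 0.18 in the G9a line, and in striatum, where controls had a median of 1.06, they were 0.14 and 0.18. The second probe set did not repeat the order everywhere, with differences of 0.52 in GLP cortex, -0.05 in G9a hippocampus and 0.00 in G9a cortex.

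**Figure D2:**
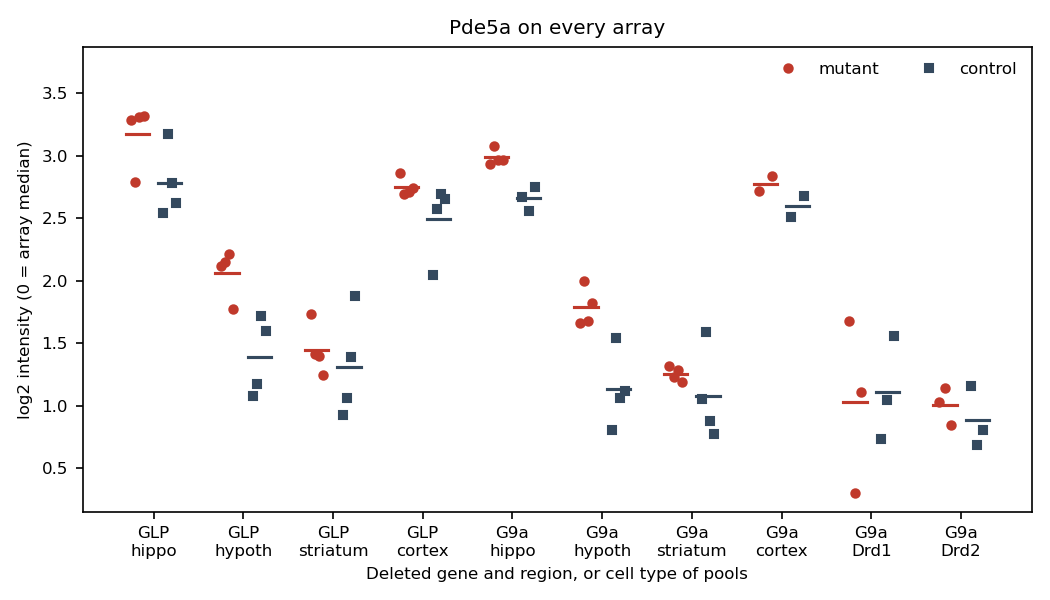
Log2 intensity of Pde5a on every array, by region and neuron type, with mutant arrays as circles left of control arrays as squares and bars at the group means. The hypothalamus mutants lie at 1.78 to 2.21 (GLP) and 1.66 to 2.00 (G9a), above their controls at 1.08 to 1.72 and 0.81 to 1.54.

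In the hippocampus the called members were RGS genes, a different gene in each line. Rgs17, whose product belongs to the RGS proteins that act on the inhibitory alpha subunit Gz, was 5.73, 5.46, 5.45 and 5.61 in G9a mutants, against 5.32, 5.07 and 5.04 in controls. The mutants all lay above the controls (difference 0.42 ± 0.10, SE, n = 4 and 3, limma adjusted p = 0.0148). Its second probe set differed by 0.51 (limma p adjusted over probe sets 0.00137). Rgs17 was the single call among 39 members tested in G9a hippocampus, where 2.64% of all genes were called. The call was lost without mutant 1 or 4 or control 2 or 3, at differences of 0.36 to 0.40 and limma adjusted p of 0.0501 to 0.116, and when other groups were left out of the fit (limma adjusted p = 0.0881). In GLP hippocampus Rgs17 was 5.02, 5.28, 5.22 and 5.38 in mutants and 5.27, 4.87, 5.26 and 5.23 in controls, which overlapped. The GLP effect minus the G9a effect was -0.35 (unadjusted p = 0.018, limma adjusted p = 0.809).

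Rgs5, a small RGS protein best known as a marker of pericytes, was the single call among 41 members tested in GLP hippocampus, where 2.06% of all genes were called. It was 6.40, 6.31, 6.38 and 6.51 in GLP mutants, against 6.04, 5.90, 6.04 and 5.94 in controls, without overlap (difference 0.42 ± 0.12, SE, n = 4 each, limma adjusted p = 0.043). Leaving out any 1 of the 8 arrays ended the call, with differences of 0.38 to 0.45 and limma adjusted p of 0.0569 to 0.158, as did averaging probe sets (limma adjusted p = 0.156). Its other 3 probe sets differed by 0.45, 0.42 and 0.16. In G9a hippocampus Rgs5 was 6.61, 6.96, 7.05 and 7.38 in mutants and 6.58, 6.69 and 6.76 in controls (difference 0.32, limma adjusted p = 0.228), with the lowest mutant inside the control range.

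Markers of 2 other cell types were read beside Rgs5. Of 16 choroid plexus markers tested in GLP hippocampus, 14 were higher, with a median difference of 2.51 and a mean level of 3.05 to 3.92 in mutants and 0.22 to 2.23 in controls. Of the 14 endothelial and mural markers tested beside Rgs5, which is itself on that list, 0 were called and their median difference was -0.01. The part of either cell type in the Rgs5 difference was not tested. Rgs4, the gene next to Rgs5 on chromosome 1 with 0 genes between them, differed by 0.06 in GLP hippocampus; it is named for its position.

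Rgs8 joined Pde5a in the G9a hypothalamus, where 2 of 41 members tested were higher and 2.34% of all genes were called. Rgs8 encodes a small RGS protein known from Purkinje and other neurons. It was 5.01, 4.27, 4.54 and 4.85 in G9a mutants, against 4.45, 3.97, 4.18 and 4.47 in controls (difference 0.40 ± 0.11, SE, n = 4 each, limma adjusted p = 0.0306). Unlike the other called genes the groups overlapped, and the call was lost without mutant 1 or 4 or control 2 or 3, at differences of 0.29 to 0.37 and limma adjusted p of 0.109 to 0.199. When only the groups compared entered the fit the adjusted p was 0.967. In GLP hypothalamus, where Pde5a was the single call among 41 members tested and 0.980% of all genes were called, Rgs8 was 4.23, 4.04, 4.12 and 4.33 in mutants and 4.09, 4.11, 4.39 and 4.00 in controls.

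No member was called in the other comparisons of mutants with controls. In G9a striatum 0 of 40 members tested were called, against 3.03% of all genes. At an unadjusted limma p below 0.05 there were 8 members (20%), against 12.6% of all genes. The 2 members of smallest p there were lower in the mutants. Rgs20, of the same subfamily as Rgs17, was 6.09, 6.06, 5.47 and 5.77 in G9a mutant striatum, against 6.20, 6.47, 6.48 and 6.18 in controls (difference -0.49, limma adjusted p = 0.0584). Rgs4, which limits signalling through Gi and Gq, was 8.05, 7.80, 7.37 and 7.97 in G9a mutants, against 8.35, 8.17, 8.21 and 8.11 in controls (difference -0.41, limma adjusted p = 0.0776). Neither pair of groups overlapped. Rgs20 passed the threshold without mutant 1, mutant 2 or control 4 (limma adjusted p = 0.0366 to 0.0482) and Rgs4 without mutant 1 (difference -0.50, limma adjusted p = 0.0381). Of 14 cortical projection neuron markers in the same striatal arrays, 7 were higher in the mutants, with a median difference of 0.63 and a mean level of 3.75 to 4.19 in mutants and 2.56 to 4.14 in controls. Their part in the values of Rgs20 and Rgs4 was not tested.

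In GLP cortex 0 of 41 members were called, against 1.54% of all genes. In G9a cortex 0 of 42 were called, against 0.719%. At an unadjusted limma p below 0.05 the members' counts were 2 (4.88%) and 0, against 6.83% and 3.18% of all genes. Beside Rgs10 the smallest p in GLP cortex was that of Pde7b, a cyclic AMP-specific phosphodiesterase, at 3.95, 4.09, 3.87 and 3.88 in mutants and 4.53, 4.31, 4.23 and 4.18 in controls (difference -0.37, limma adjusted p = 0.562). In G9a cortex Rgs10 was 3.77 and 3.87 in mutants and 4.05 and 4.21 in controls, and the cyclic GMP-specific Pde9a was 2.30 and 1.95 in mutants and 1.81 and 1.91 in controls (limma adjusted p = 1 for both). With 2 arrays in each group this comparison has the least precision of the 8 in tissue.

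In the Drd1 pools and in the Drd2 pools labelled as lacking G9a, 0 of 41 members were called in either. Of all genes, 0.0166% and 0.0165% were called by limma. The members at an unadjusted p below 0.05 were 1 (2.44%) and 0, against 2.22% and 1.45% of all genes. The smallest p in the Drd1 pools was that of Adcy8, a cyclase stimulated by calcium and calmodulin, at 1.42, -0.01 and 1.42 in mutants and 2.63, 1.44 and 2.06 in controls (difference -1.10, limma adjusted p = 0.936). Rgs14, known in mouse for limiting plasticity in the CA2 field, followed with 5.12, 3.59 and 4.65 in mutants and 5.13, 5.16 and 4.96 in controls. The second mutant pool, which was also the one with low Ehmt2, was the lowest for both genes. In the Drd2 pools Pde6d was 5.44, 5.53 and 5.60 in the pools labelled mutant and 4.81, 5.09 and 5.31 in controls (difference 0.45, limma adjusted p = 1), and Rgs7bp was 7.37, 8.15 and 7.90 in the pools labelled mutant and 8.74, 7.88 and 8.42 in controls (difference -0.54, limma adjusted p = 1).

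Across the 10 comparisons of mutants with controls, 408 pairs of a member and a comparison were tested and 6 were called (1.47%), 5 higher and 1 lower. Of the pairs of all genes 1.49% were called, and 75.3% of those calls were higher in mutants, so the members' share of calls lay at the background. The median difference of the members tested lay between -0.08 and 0.03 and that of all genes tested between -0.09 and 0.04. None of the 4 tests of the GLP effect minus the G9a effect within a region, the test of the Drd1 effect minus the Drd2 effect or the 2 tests of an effect across the regions called a member by limma. Of all genes, 0.157%, 0.00831%, 0.00842% and 0.0168% were called for hippocampus, hypothalamus, striatum and cortex, 0% for the pools, and 1.10% and 1.40% across regions in the GLP and G9a lines. At an unadjusted p below 0.05 these tests held 2, 4, 2, 0, 0, 5 and 2 members, in the same order. As shares these were 4.88%, 9.76%, 4.88%, 0%, 0%, 12.2% and 4.76%. Of all genes the shares were 4.89%, 8.51%, 6.53%, 1.07%, 1.33%, 6.73% and 9.08%. Of 39 members tested in all 8 tissue comparisons, 5 (12.8%) differed in the same direction in every comparison, against 6.57% of 10681 genes. They were Rgs10, lower by 0.34 on average, and Pde5a, Rgs12, Rgs17 and Pde7a, higher by 0.35, 0.24, 0.16 and 0.13. Rgs12 and Pde7a were named after their values were seen. Neither of those was called in any single comparison.

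**Figure D3:**
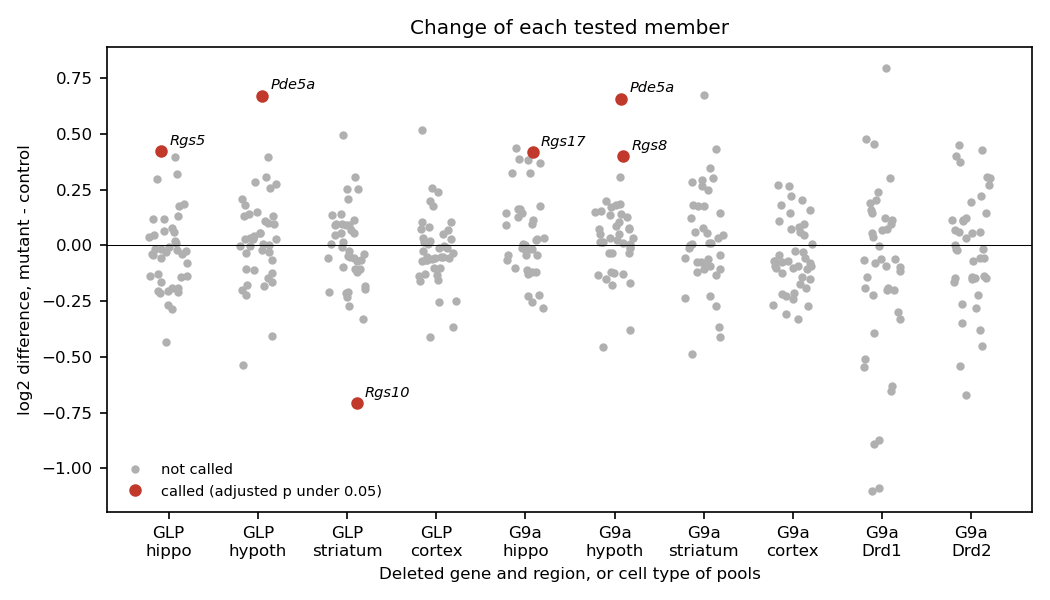
Log2 difference of mutants minus controls for every tested RGS, phosphodiesterase and adenylyl cyclase gene in the 10 comparisons, 1 point per gene, with called genes in red and named. Called genes lie at -0.71 for Rgs10 and between 0.40 and 0.67 for the other 5 calls, and the other genes lie mostly near 0 in tissue.

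The genes that work beside these families were read from 7 lists of 103 genes. In 741 tested pairs of a gene and a comparison of mutants with controls, 4 were called (0.540%), all higher in mutants, against the 1.49% of all pairs given above. Pkib, an inhibitor of protein kinase A, was at 225% of control in GLP striatum (difference 1.17 ± 0.18, SE, limma adjusted p = 9.78e-06), the same tissue in which Rgs10 fell. Akap12, an anchoring protein of that kinase, and Nos1, which makes the nitric oxide that activates guanylyl cyclase, both differed by 0.75 in G9a hippocampus (limma adjusted p = 0.00972 and 0.00761). Gng2, a G protein gamma subunit, differed by 0.68 in G9a striatum (limma adjusted p = 0.0487). No gene of the other lists was called in a comparison of mutants with controls. Of the left-out family genes, Rgs18 was called in G9a cortex (difference 2.40, 2 arrays in each group) and Rgs9, Pde10a and Adcy5 in no comparison of mutants with controls. Rgs18 lay at -2.32 to -1.53 in the cortex controls of both lines, below the array median. It passed the low-value filter only through the 2 mutant arrays, so the call carries little weight.

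Most of these genes, like most of all genes tested, had a level that depended on the brain region. In controls of both lines, 40 of the 41 members tested differed between at least 1 region and the mean of the other 3, or 97.6% against 95.5% of all genes tested. The exception was Pde6g, the inhibitory subunit known from photoreceptors. By region the share of members called was 70.7% in hippocampus, 82.9% in hypothalamus, 80.5% in striatum and 78.0% in cortex, against 62.5%, 76.0%, 64.2% and 67.9% of all genes. The members' shares were higher in each region, and the difference in shares was not tested. In hippocampus 11 members were higher and 18 lower, against 38.8% and 23.7% of all genes. In hypothalamus 13 were higher and 21 lower, against 36.0% and 40.0%. In striatum 19 were higher and 14 lower, against 36.0% and 28.3%, and in cortex 21 were higher and 11 lower, against 26.4% and 41.5%. The medians of the members tested were -0.09, -0.23, 0.11 and 0.16, against 0.08, -0.02, 0.04 and -0.10 over all genes tested.

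In striatum the most distinct members were phosphodiesterases. Pde1b, activated by calcium and calmodulin and known from medium spiny neurons, ranged over 7.32, 7.57 and 7.74 (lowest, median and highest of 8 controls) in striatum, against 3.86, 4.07 and 4.20 in hippocampus, 3.23, 3.97 and 4.46 in hypothalamus, and 5.19, 5.43 and 5.89 in cortex. The striatal arrays lay above every other array, and hippocampus and hypothalamus overlapped (difference 3.08 ± 0.08, SE, limma adjusted p = 9.76e-36, 8.46-fold). Pde7b ranged over 6.62, 6.88 and 7.07 in striatum, against 3.13, 3.52 and 3.59 in hippocampus, 3.40, 4.05 and 4.53 in hypothalamus and 3.94, 4.20 and 4.53 in cortex (difference 2.95, 7.74-fold). Again no striatal array met another region's, while hypothalamus and cortex could not be ordered. Pde1c differed by 2.03 and Rgs4 by 1.65, both with striatal arrays above all others, Rgs4 at 8.06, 8.19 and 8.39 in striatum and 7.20, 7.29 and 7.40 in cortex, the next region. With probe sets averaged Pde1c did not pass the low-value filter and differed by 0.93 in striatum, and by -0.78 in hippocampus in place of -1.77.

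The related Pde1a ran the other way. It ranged over 2.11, 2.80 and 3.72 in striatum, against 4.58, 4.92 and 5.22 in hippocampus, 3.01, 3.48 and 3.93 in hypothalamus, and 5.68, 5.78 and 5.93 in cortex. Cortex lay above all other arrays and striatum overlapped only hypothalamus, with differences of -1.85 for striatum and 2.04 for cortex. Adcy8 was also lower in striatum, by 1.63 on the log2 scale, at 0.99, 1.47 and 1.89 there and 2.31, 2.77 and 2.96 in hippocampus. Pde5a and Rgs19 had striatal differences of -0.98 and -0.96. The genes left out of the set rose in striatum as well, Rgs9 by 3.78, Pde10a by 3.38 and Adcy5 by 2.60.

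Hippocampus and hypothalamus stood at opposite ends for Rgs14 and Adcy1. Rgs14 ranged over 4.54, 5.16 and 5.36 in hippocampus, against 1.29, 1.73 and 2.01 in hypothalamus, 4.03, 4.18 and 4.26 in striatum, and 3.62, 3.85 and 4.00 in cortex. No 2 regions overlapped, and the differences were 1.82 for hippocampus and -2.69 for hypothalamus (limma adjusted p = 1.32e-22 and 5.08e-31). Adcy1, the calcium-stimulated cyclase known for its part in learning in mice, ranged over 7.65, 7.85 and 8.02 in hippocampus, 3.77, 4.38 and 5.42 in hypothalamus, 5.62, 5.91 and 6.67 in striatum, and 7.46, 7.63 and 7.74 in cortex. Hippocampus and cortex overlapped at the top and hypothalamus was lowest on every array (difference -2.67). Adcy9 and Adcy6 were also higher in hippocampus, by 1.18 and 1.12, and Pde1c, Pde7b, Pde1b and Rgs6 lower, at -1.77, -1.59, -1.59 and -1.43.

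Hypothalamus had its own set of higher members. Adcy7, a cyclase stimulated by G protein beta and gamma subunits, ranged over 3.74, 4.20 and 4.76 there, against 1.34, 2.00 and 2.52 in hippocampus, 1.69, 2.07 and 2.91 in striatum, and 2.08, 2.53 and 2.99 in cortex. Every hypothalamic array was above all others, and the remaining 3 regions overlapped (difference 2.09, limma adjusted p = 3.64e-25). Rgs17 ranged over 6.41, 6.51 and 6.72 in hypothalamus, against 4.87, 5.23 and 5.32 in hippocampus, with striatum at 5.05 to 5.60 and cortex at 5.16 to 5.48, which overlap with hippocampus (difference 1.24). Rgs16 was higher by 1.58 but varied from 2.50 to 4.95 among hypothalamic controls. Rgs16 is itself in the list of thalamic markers, and whether dissections differed in neighbouring tissue was not tested. Adcy8 was higher by 1.15, at 3.16, 3.60 and 3.96 in hypothalamus and 2.66, 3.11 and 3.18 in cortex, which overlapped. Rgs7bp and Pde1b were lower in hypothalamus, at -1.91 and -1.76.

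In cortex the higher members after Pde1a were Adcy1 (difference 1.48), Rgs6 (1.34), which binds the beta subunit Gnb5, and the cyclic AMP-specific Pde4a (1.00). Pde4a ranged over 1.80, 1.85 and 2.17 in cortex, against 0.94, 1.29 and 1.48 in hippocampus, with hypothalamus at 0.03 to 1.13 and striatum at 0.28 to 1.39. Rgs16 was lowest in cortex, at 1.11, 1.33 and 1.74, below every array of the other regions (difference -1.44). Pde7b, Pde8a and Rgs5 followed at -0.59, -0.57 and -0.49. With probe sets averaged, Pde7b and Pde8a differed in cortex by -0.04 and -0.08 (limma adjusted p = 0.765 and 0.452), which ended both calls. The directions were tested again within each line, an alternative chosen after the data were seen. Of the 128 regional calls, 126 and 124 had the same sign in the GLP and G9a controls alone. Called again were 113 and 103 of them, and in cortex within the G9a line 19 of 32.

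**Figure D4:**
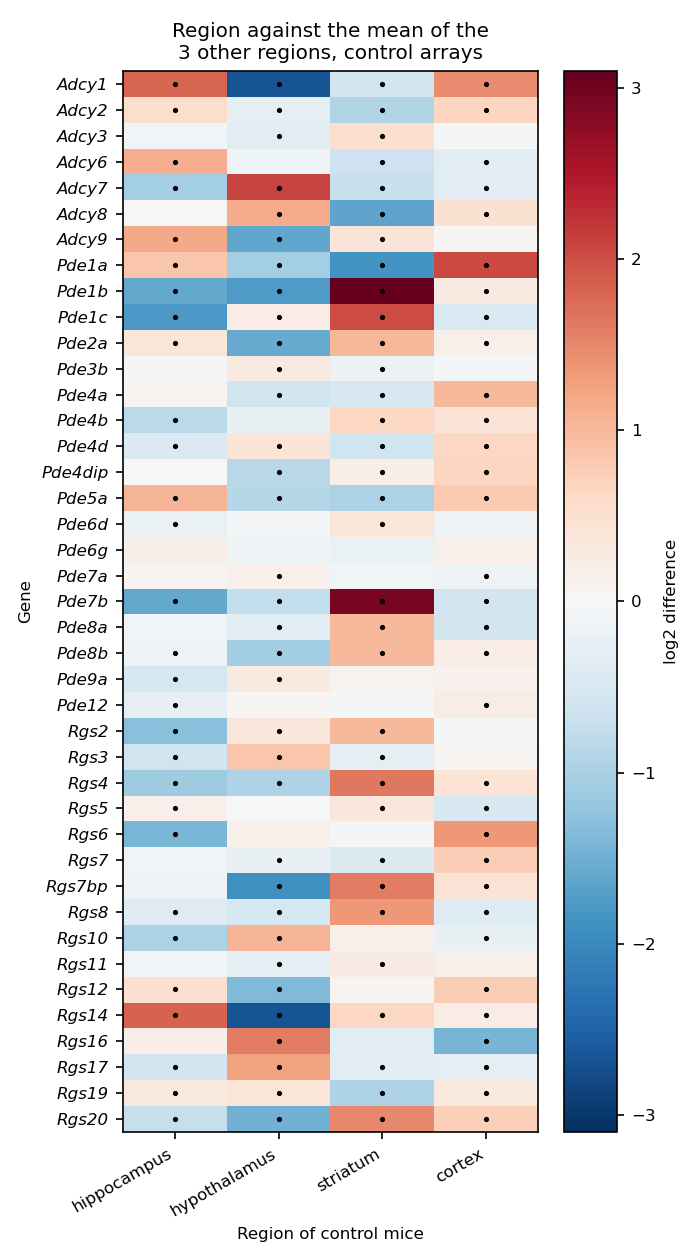
Heat map of the log2 difference between each region and the mean of the other 3 in control arrays, for the 41 tested RGS, phosphodiesterase and adenylyl cyclase genes, with a dot where the adjusted p was below 0.05. Pde1b and Pde7b are highest in striatum (3.08 and 2.95) and Rgs14 and Adcy1 lowest in hypothalamus (-2.69 and -2.67).

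Drd1 and Drd2 neurons of the striatum differed in 6 of 41 members (14.6%), against 15.3% of all genes called in that comparison of control pools. The members' share of calls thus lay at the background. At an unadjusted limma p below 0.05 it was 22%, against 30.3% of all genes. In Drd1 pools 5 of them were higher and 1 lower, against 7.64% and 7.67% of all genes. The markers of the pools went with their labels, with 4 of 8 Drd1 neuron genes higher and 3 of 6 Drd2 neuron genes lower in Drd1 pools. Pde1a was the widest apart, at 4.88, 5.43 and 4.89 in Drd1 pools, against 2.23, 1.68 and 3.17 in Drd2 pools. The pools did not overlap (difference 2.71 ± 0.43, SE, n = 3 each, limma adjusted p = 0.00241, 6.52-fold). The pools labelled as lacking G9a gave the same order, with Pde1a at 5.19, 4.93 and 4.88 in Drd1 pools and 2.06, 1.89 and 3.31 in Drd2 pools. Whole striatum, in which Pde1a was lowest of the regions, had 2.11, 2.48, 3.26 and 2.41 in G9a controls, 3 of them within the range of the Drd2 control pools and 1 just above it.

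Adcy2, a cyclase of the same group as Adcy7, was the member lower in Drd1 pools. It was 4.57, 4.91 and 4.78 in Drd1 pools, against 5.54, 5.59 and 6.05 in Drd2 pools, without overlap (difference -0.97 ± 0.22, SE, n = 3 each, limma adjusted p = 0.0146). Pde12 was 3.99, 3.69 and 3.73 in Drd1 pools, against 1.74, 2.61 and 3.06 in Drd2 pools (difference 1.34, limma adjusted p = 0.0251). Pde9a was 3.39, 4.08 and 3.85 in Drd1 pools, against 2.78, 2.45 and 2.93 in Drd2 pools (difference 1.05, limma adjusted p = 0.0224). In all these the lowest pool of the higher type was above the highest pool of the other type. Pde4a, near the array median, was 1.24, 1.23 and 1.31 in Drd1 pools, against 0.44, 0.09 and 0.71 in Drd2 pools (difference 0.84, limma adjusted p = 0.0423). Rgs2, which prefers the alpha subunit Gq, was 10.08, 9.67 and 9.45 in Drd1 pools, against 8.93, 9.15 and 9.30 in Drd2 pools (difference 0.61, limma adjusted p = 0.0415). These last pairs were separated as well, Rgs2 by a narrow gap.

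Apart from Pde1a, each of these calls was lost when some single pool was left out, with limma adjusted p of 0.0519 to 0.0534 for Adcy2, 0.0509 to 0.0764 for Pde12, 0.0733 to 0.1 for Pde9a, 0.0755 to 0.134 for Pde4a and 0.0527 to 0.131 for Rgs2. Averaging probe sets ended the Pde12 call (difference 0.43, limma adjusted p = 0.287), and quantile scaling ended those of Rgs2 (0.28, limma adjusted p = 0.315) and Pde4a (0.78, limma adjusted p = 0.119). In the pools labelled as lacking G9a, compared after the data were seen, all 6 had the same sign and Pde1a, Adcy2 and Rgs2 were called again (differences 2.58, -1.21 and 0.61), in a comparison where 15.4% of all genes were called. Rgs7bp (1.47), Adcy7 (-2.51) and Pde8a (-2.41) were called there in addition, and are named after their values were seen. The second Drd1 pool labelled mutant was low for the last 2, with Adcy7 at -0.98 and Pde8a at 1.16.

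Markers of other cells also separated the control pools. Microglial markers were lower in Drd1 pools for 5 of 12 tested, at a mean of 1.48 to 1.55 in Drd1 pools and 1.96 to 2.50 in Drd2 pools, and 4 of 13 endothelial and mural markers were lower. Means of the oligodendrocyte markers were 5.70 to 6.17 in Drd1 pools and 6.25 to 6.81 in Drd2 pools. Means of the astrocyte markers were 4.68 to 4.96 and 5.07 to 5.41. Choroid plexus markers were higher for 5 of 10 tested, and kidney markers for 6 of 7, at 0.34 to 0.83 in Drd1 pools and -1.52 to -1.34 in Drd2 pools. Kidney genes such as Umod, Slc34a1, Lrp2 and Miox lay below the array median in every Drd2 control pool, as did the choroid plexus genes Folr1 and Kcne2. Such genes could pass the low-value filter only through Drd1 pools where they were high. The filter thus largely fixed the direction of these 2 counts, which carry no weight. The part of these differences in the values of the 6 members was not tested. Of the pathway lists, protein kinase A subunits Prkacb and Prkar2b were higher in Drd1 pools by 1.19 and 1.11, Pcp2 by 3.93 and Guca2b by 2.39, while Gnai2, an inhibitory alpha subunit, was lower (-1.04). Pcp2 and Guca2b had means below the array median in Drd2 pools (-1.07 and -1.79). Rgs9, Pde10a and Adcy5 were not called between the pools, at 0.69, 0.46 and -0.51.

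**Figure D5:**
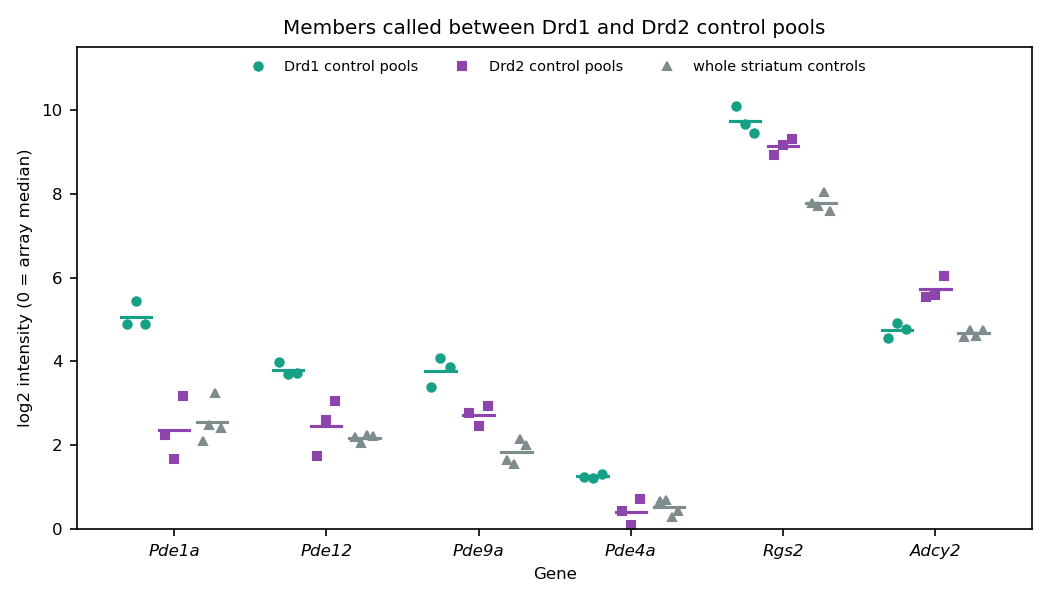
Log2 intensity of the 6 members called between Drd1 and Drd2 control pools, in Drd1 control pools, Drd2 control pools and whole striatum controls, 1 point per array with bars at the means. Pde1a lies at 4.88 to 5.43 in Drd1 pools, above the Drd2 pools at 1.68 to 3.17.

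Set against whole striatum controls of the G9a line, most members were higher in the pools, and so were most genes. In Drd1 pools 27 of 41 members were higher and 4 lower, where 65.8% of all genes were called, 53.8% higher and 12.0% lower. In Drd2 pools 27 were higher and 2 lower, where 61.4% of all genes were called, 54.6% higher and 6.87% lower. The median over all genes tested was shifted by 0.63 and 0.60, and that of the members by 0.74 and 0.88. With quantile scaling the members' counts were 15 higher and 7 lower in Drd1 pools and 13 higher and 2 lower in Drd2 pools, and the share of higher calls among all genes was 55.3% in place of 81.8% and 65.1% in place of 88.8%. Isolation of polyribosomes and cell type cannot be told apart here.

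Among the members, the deepest fall in the pools was that of Rgs5. It was 2.70, 2.63 and 2.75 in Drd1 pools and 3.42, 3.56 and 2.63 in Drd2 pools, against 6.64, 6.65, 6.69 and 6.53 in striatum. No pool came near the tissue (differences -3.94 and -3.43, limma adjusted p = 2.55e-07 and 1.68e-06), 15.3-fold and 10.8-fold lower. Of the endothelial and mural list, counted without Rgs5, genes were lower for 11 of 14 in Drd1 pools and 9 of 14 in Drd2 pools, at means of 0.50 to 0.61 and 0.79 to 1.14 against 2.48 to 2.57 in striatum, and microglial markers were lower for 12 of 12 and 8 of 12. Not all glial lists fell so. Oligodendrocyte markers had means of 5.70 to 6.17 in Drd1 pools and 6.25 to 6.81 in Drd2 pools, against 6.22 to 6.69 in striatum. Astrocyte markers had means of 4.68 to 4.96 and 5.07 to 5.41, against 5.64 to 5.86. Rgs11 was lower in both pool types as well, at 0.94, 1.19 and 0.40 in Drd1 pools and 0.12, 0.65 and 0.96 in Drd2 pools, against 1.42, 1.69, 1.77 and 2.01 in striatum.

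Pde8a and Pde3b were called lower in Drd1 pools, and both calls rested on single arrays. Pde8a was 4.55, 3.89 and 3.23 in Drd1 pools, against 5.01, 5.03, 4.52 and 5.24 in striatum (difference -1.06), and without the third pool the difference was -0.73 (limma adjusted p = 0.0794). Pde3b was 2.56, 2.26 and 2.66 in Drd1 pools, against 3.28, 3.16, 3.07 and 3.17 in striatum (difference -0.68), and the call was lost without the second pool or the first striatal array. Rgs11 in Drd1 pools likewise had a difference of -0.65 without the third pool (limma adjusted p = 0.0527).

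Among members higher in the pools, Rgs19 was 4.21, 4.55 and 5.13 in Drd1 pools and 4.51, 3.75 and 3.93 in Drd2 pools, against 1.96, 1.64, 2.11 and 1.48 in striatum (differences 2.83 and 2.26). Pde4dip was 6.19, 6.58 and 5.90 in Drd1 pools and 6.80, 5.77 and 7.10 in Drd2 pools, against 3.73, 3.39, 3.71 and 3.83 in striatum (differences 2.56 and 2.89). Both stood far beyond the general shift, but with probe sets averaged Pde4dip differed by 0.38 in Drd1 pools and 0.36 in Drd2 pools, which ended both calls (limma adjusted p = 0.0811 and 0.101). Rgs7bp and Rgs2 both differed by 1.96 in Drd1 pools, Rgs7bp at 9.33, 9.38 and 8.76 against 7.27, 7.13, 7.21 and 7.18 in striatum. Pde1a, with a difference of 2.50 in Drd1 pools, had a difference of -0.20 in Drd2 pools (limma adjusted p = 0.645), and the direct comparison of the pools is given above.

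In Drd2 pools the next members were Rgs6, Rgs16 and Rgs20. Rgs6 was 2.51, 1.73 and 2.59 in Drd2 pools, against 0.38, 0.39, 0.47 and 0.69 in striatum (difference 1.79), and Rgs16 was 4.69, 3.88 and 3.67 in Drd2 pools, against 1.98, 2.73, 2.57 and 2.66 in striatum (difference 1.59). Rgs20 was 8.77, 7.19 and 7.15 in Drd2 pools, against 6.20, 6.47, 6.48 and 6.18 in striatum (difference 1.37), a call that quantile scaling ended. All 3 were above every striatal array in every Drd2 pool, and their differences in Drd1 pools were 1.85, 1.36 and 1.86.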

How the data were processed

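RNA from whole tissue (59 arrays in 16 groups) and polyribosome mRNA from pools (12 arrays in 4 groups) was measured on a mouse expression array of 45101 probe sets. The deposited table holds GCRMA intensities on a linear scale, per the submitters' processing notes, with each array's median at 1 and a lowest value of 0.0271. No version of GCRMA is stated in the sources read, nor whether tissue and pool arrays were normalised as 1 set. The highest correlation between any 2 arrays was 0.9976, so no array was taken as deposited more than once.

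The table was put on the log2 scale with no floor. Probe sets with exactly 1 symbol (34958; 932 had several and 9211 none) gave 18194 genes, each by its brightest probe set. Differences were fitted with limma 3.58.1 (R 4.3.3; lmFit, contrasts.fit, and eBayes with an intensity trend) over all whole-tissue arrays, over the 12 pools, or over 10 arrays for control pools against striatum, with Benjamini-Hochberg adjustment per comparison and a threshold of 0.05. The procedure was tested on simulated data. Members, lists and tests were chosen with earlier results of these data known. Genes named are those called in mutant comparisons and between Drd1 and Drd2 pools, the 4 largest called differences each way per region, the 5 largest each way for pools against striatum, the 2 of smallest p where none was called, and up to 3 called genes per pathway list. Others are stated as chosen after their values were seen. Alternatives were other floors, filters and scaling, averaged probe sets, no trend, the compared groups alone, a replicate block, a sex covariate and leaving out each array. Replicate numbers paired the Drd2 pools (correlations of deviations 0.163 to 0.492), where the blocked fit called 0 members too. All columns of the table were used (0 left out).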

Additional observations from a re-analysis of the deposited data

Results flagged for a closer look

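Of 65 groups of arrays tested among the genes and comparisons named, 2 held an array far from the others of its group, by the gap to the nearest array divided by the range of the group. Chance gives about 1 in 20 such groups. The fourth GLP cortex control had Rgs10 at 3.82, against 4.14 to 4.20 in the other controls (0.86 of the range), and is the array without which the Rgs10 difference in GLP cortex passed the test. The first GLP striatum control had Pde7b at 6.85, against 6.62 to 6.66 in the other controls (0.842 of the range), and no mutant comparison in striatum called Pde7b.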

How the results depend on the processing

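No named difference changed sign under any alternative run. The members called in GLP hippocampus (1 as reported) were 0 with probe sets averaged, 0 without the intensity trend and 0 without any 1 array. In GLP hypothalamus (1) they were 2 with quantile scaling, 0 with the compared groups alone, 0 with the replicate block and 0 to 3 leaving out arrays. In GLP cortex (0) they were 1 with quantile scaling, 2 with the compared groups alone and 0 to 1 leaving out arrays. In G9a hippocampus (1) they were 2 with no low-value filter, 0 with the compared groups alone, 0 with the block, 2 with sex as a covariate and 0 to 2 leaving out arrays. In G9a hypothalamus (2) they were 1 with probe sets averaged, 0 with the compared groups alone and 0 to 5 leaving out arrays. In G9a striatum (0) they were 1 with the block and 0 to 2 leaving out arrays, and in GLP striatum 1 throughout. The GLP effect across regions called 1 with probe sets averaged, and it, the G9a effect across regions and the difference between lines in hypothalamus called 0 to 1 leaving out arrays. Between Drd1 and Drd2 pools (6) the count was 11 with no low-value filter, 1 with the block and 2 to 4 leaving out pools. Quantile scaling gave 3 higher and 1 lower there, and among all genes 39.4% of calls higher in place of 49.9%. Against striatum, Drd1 pools gave 29 to 31 calls and Drd2 pools 28 to 30 leaving out arrays, and Drd2 pools 15 (29 as reported) with quantile scaling. Regional counts leaving out arrays were 26 to 29 in hippocampus, 32 to 35 in hypothalamus, 31 to 34 in striatum and 25 to 33 in cortex, and 20 in cortex (32 as reported) within the G9a line, a setting added after the data were seen. Of 70 named values, 11 lost their call with probe sets averaged, 9 with the block (among them Pde5a in GLP hypothalamus at a limma adjusted p of 0.0814 and Rgs17 in G9a hippocampus at 0.0532), 5 with the compared groups alone, 3 with quantile scaling, 2 without the trend, 1 with a floor and 0 with other filters. The Drd2 pools apart, same-numbered arrays did not all deviate together, though some did. In G9a hypothalamus the mean correlation of deviations was 0.34 for same-numbered arrays and -0.123 for others, with a range of -0.056 to 0.621 among the former. The blocked fit kept the Pde5a and Rgs8 calls there. Across regions of the GLP controls the mean was 0.266 for same-numbered arrays and -0.088 for others. The cause of these changes was not tested. With 2 to 4 arrays in each group, precision is limited by their number, and genes near the array median, such as Pde4a and Rgs6, are measured least firmly.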

Other observations

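The second Drd1 pool labelled as lacking G9a was the lowest of the 12 pools for several members besides Adcy8 and Rgs14, all named after their values were seen. Rgs5 was -0.35 there, Adcy7 -0.98, Pde8a 1.16 and Pde3b 0.39. It was also the pool with Ehmt2 at 1.56.

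On chromosome 1 lie 11 of the 52 members, 9 of them RGS genes, by the RefSeq annotation of build GRCm38.p6. Rgs5 and Rgs4 have 0 genes between them and Rgs8 and Rgs16 have 1. In the comparisons that called one of a pair the neighbour was not called: Rgs4 differed by 0.06 where Rgs5 was called in GLP hippocampus, and Rgs16 by -0.46 (limma adjusted p = 0.45) where Rgs8 was called in G9a hypothalamus.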
